A study of Mus musculus with 6 samples.

Results

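The miR-99, miR-100 and miR-125 families were compared between cultured mouse oligodendrocytes, which make the myelin sheath around axons, and extracellular vesicles (EVs) pelleted from their medium. The members were taken by name from the deposited count tables: the guide strands miR-99a-5p, miR-99b-5p, miR-100-5p, miR-125a-5p and miR-125b-5p, and the opposite arms miR-99b-3p and miR-125a-3p. These are 7 of the 1906 mature miRNAs in each table. The EV group held 3 small RNA libraries from vesicles of primary oligodendrocytes kept 5 to 6 days in culture. The cell group held 3 libraries of whole cells after 6 days. In both groups the oligodendrocytes derived from C57BL/6N embryos of day 14 and had grown in Sato medium with 1% horse serum. The labels name no genetic change in either group. Vesicles were gathered for 24 h in Sato medium without serum but with B27, a supplement for neural cultures, and pelleted in a last spin at 100000 g. Such a pellet also holds particles other than vesicles, and no library of medium alone was analysed here, so a level in EVs does not tell where a miRNA came from.

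The miR-99 and miR-100 guide strands share one seed, the bases that lead the pairing of a miRNA with its targets, and the miR-125 strands share another. In mammals the first group is known for repressing the growth regulator Mtor, and miR-125, the relative of the worm miRNA lin-4, for repressing Lin28a, which blocks maturation of let-7. Both families lie in clusters with let-7 genes, so that a guide strand of each kind can come from one primary transcript. The strand loaded into Argonaute is the guide, and the other arm of the hairpin, the passenger, is mostly degraded.

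The mature sequences of all 7 members were found in RefSeq (build GRCm38.p6), and they are shown because near-identical strands behaved differently between EVs and cells. Capitals mark the seed, bases 2 to 8.
miR-99a-5p: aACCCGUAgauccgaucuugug
miR-100-5p: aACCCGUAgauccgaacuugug
miR-99b-5p: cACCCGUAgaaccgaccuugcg
miR-125a-5p: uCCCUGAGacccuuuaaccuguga
miR-125b-5p: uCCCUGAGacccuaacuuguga
miR-351-5p: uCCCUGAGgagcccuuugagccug
Counting from 1 at the 5′ end, miR-99a-5p and miR-100-5p differed by the single substitution U16A. From miR-99a-5p to miR-99b-5p there were 4 substitutions, A1C, U11A, U16C and U21C. The first 13 and the last 5 bases of the miR-125 guides were identical, and miR-125a-5p was 24 bases long against 22 for miR-125b-5p. miR-351-5p, which is no member, is shown because it has the miR-125 seed. The further entries with that seed, miR-6367 and miR-6394, had 0 counts in all 6 libraries, which allows up to 3 reads in each.

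The tested passenger arms and miR-125a-3p are shown with the same marking, since those of miR-125b, unlike its guide, tell the gene copies apart.
miR-99a-3p: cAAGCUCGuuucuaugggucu
miR-99b-3p: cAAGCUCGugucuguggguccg
miR-125a-3p: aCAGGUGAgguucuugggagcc
miR-125b-1-3p: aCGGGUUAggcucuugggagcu
miR-125b-2-3p: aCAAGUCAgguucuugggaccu
In GRCm38.p6, which is not the build the reads were mapped to, Mir99b, Mirlet7e and Mir125a lie on the plus strand of chr17:17830194-17830876, a span of 683 bases in introns of the protein-coding gene Spaca6. Mir99a, Mirlet7c-1 and Mir125b-2 lie on the plus strand of chr16:77598940-77646339, in introns of the long RNA gene Mir99ahg, with the miR-125b copy at the far end of 47.4 kb. Mir100, Mirlet7a-2 and Mir125b-1 lie on the plus strand of chr9:41531437-41582001, again in introns of a long RNA gene. miR-125b-5p therefore has a copy in each of the last clusters, and its reads cannot be assigned to one.

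Libraries held 313766 to 689475 counts in EVs and 126910 to 202358 in cells, so one read was worth 1.45 to 3.19 CPM (counts scaled to a library total of 1000000) in EVs, against 4.94 to 7.88 CPM in cells. The 4 oligodendrocyte markers (both arms of miR-338, and miR-219a-5p with miR-219a-2-3p) were detected in every library, and summed to 22662 to 25439 CPM in the EV libraries, against 29281 to 39683 CPM in the cell libraries. Within that sum miR-219a-5p went the other way, at 6403 to 11002 CPM in EVs against 3191 to 3649 CPM in cells. miR-219a-2-3p and both arms of miR-338 were lower in EVs. The 4 neuron markers, led by miR-124-3p, were also all detected and summed to 26152 to 33949 CPM in EVs, against 9751 to 15838 CPM in cells. miR-122-5p, the liver marker, stood at 4194 to 8316 CPM in EVs, against 24.7 to 47.3 CPM in cells, and the 3 red cell markers at 3944 to 7835 CPM in EVs, against 212 to 256 CPM in the cell libraries, with miR-144-3p at 0 in Cells replicates 1 and 3. The 3 mural and mesenchymal markers summed to 2473 to 4779 CPM in EVs, against 362 to 1037 CPM in cells, and the 2 endothelial markers to 182 to 303 CPM in EVs, with 63.0 to 93.9 CPM in the cell libraries, all detected. The 5 myeloid markers overlapped between groups, at 612 to 1936 CPM in EVs, while the cell libraries held 1592 to 4566 CPM. The part of these other cell types in the results below was not tested.

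All 5 guide strands fell in EVs relative to cells, and no tested member rose. The libraries are bulk RNA, so fewer vesicles or cells of a kind and less RNA in each cannot be told apart. By edgeR's quasi-likelihood test with Benjamini-Hochberg (BH) adjustment over 336 tested miRNAs, 5 of the 6 tested members were called lower, at an adjusted p below 0.05. Over all tested miRNAs 28.9% were called lower and 28.6% higher, or 57.4% in either direction. The median log2 fold change, EVs over cells, was -1.53 over the 6 tested members and 0.06 over all tested miRNAs. The seventh member, miR-125a-3p, had too few reads for the test. In all, the 7 members held 3.30% ± 0.36 of EV reads and 6.45% ± 1.32 of cell reads (n = 3 libraries each, mean ± SD), with an exact permutation p of 0.1, two-sided, the smallest that 3 against 3 allows.

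**Figure D1:**
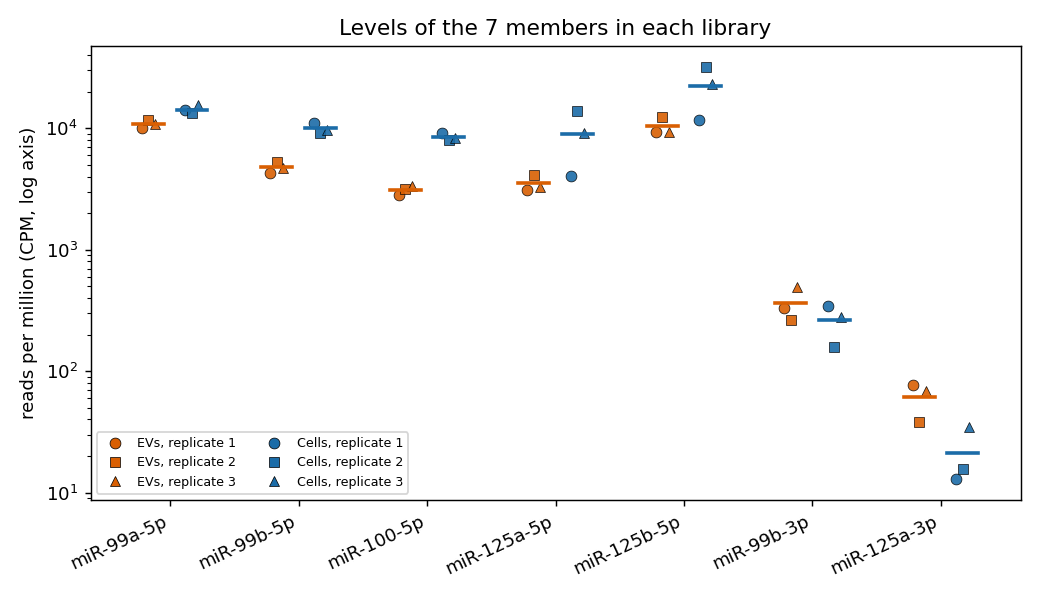
Level of each member in each library, in CPM on a log axis, with EVs left of cells, one marker shape per replicate number and a line at the group mean. The miR-99 and miR-100 guides lie lower in all EV libraries, while miR-125a-5p and miR-125b-5p are spread widely among the cell libraries, with Cells replicate 1 at 4072 and 11659 CPM.

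In the miR-99 and miR-100 family, miR-100-5p had the largest fold change. It stood at 2821, 3149 and 3337 CPM in EVs replicates 1 to 3, against 9232, 8045 and 8366 CPM in Cells replicates 1 to 3. Every EV library lay well below every cell library. Its log2 fold change was -1.94 (BH-adjusted p = 6.74e-05 by edgeR, SE 0.20), and it ranked 26 from the lowest of 336 fold changes.

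miR-99b-5p, the partner of let-7e and miR-125a, came next. It had 4278, 5319 and 4688 CPM in EVs and 11025, 9156 and 9760 CPM in cells, again without overlap, and fell by 1.54 on the log2 scale (BH-adjusted p = 0.000348 by edgeR, SE 0.21). miR-99a-5p, the partner of let-7c, had the smallest fold change of the guides. Its levels were 10107, 11639 and 10791 CPM in EVs and 14130, 13309 and 15413 CPM in cells. The groups did not overlap but lay close together. Its log2 fold change was -0.86 (BH-adjusted p = 0.003 by edgeR, SE 0.18), and with library size only, without the trimmed mean of M-values (TMM) factor, it was -0.40 (adjusted p = 0.0416), where the median of all tested miRNAs moved to 0.54 from 0.06. CPM values without overlap and with EVs below were found for 20.2% of tested miRNAs.

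Summed, the reads of these 3 guides came to 1.87% ± 0.15 of all EV reads and 3.28% ± 0.20 of all cell reads (SD, n = 3 each). Their sum, which does not depend on how reads were divided between them, fell by 1.30 on the log2 scale (BH-adjusted p = 0.000358 by edgeR, SE 0.17).

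The miR-125 guides were also lower in EVs but with a wide spread among the cell libraries. miR-125b-5p had 9250, 12426 and 9397 CPM in EVs and 11659, 32243 and 23384 CPM in cells. Cells replicate 1 fell inside the EV range, so the groups overlapped. The log2 fold change was -1.53 (BH-adjusted p = 0.00243 by edgeR, SE 0.30).

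miR-125a-5p showed the same picture at a lower level. It had 3132, 4130 and 3305 CPM in EVs and 4072, 13837 and 9132 CPM in cells, and once more Cells replicate 1 lay within the EV range. It fell by 1.77 on the log2 scale (BH-adjusted p = 0.00243 by edgeR, SE 0.35). The sum of both guides fell by 1.62 (BH-adjusted p = 0.00288 by edgeR, SE 0.32), and its log2 fold change was -1.96 without Cells replicate 1 and -1.33 without Cells replicate 2.

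miR-351-5p, the X-linked miRNA with the miR-125 seed, stood at 267, 271 and 350 CPM in EVs and 333, 583 and 573 CPM in cells. Its lowest value among cells was again in replicate 1, inside the EV range. It fell by 1.19 on the log2 scale (BH-adjusted p = 0.00208 by edgeR, SE 0.23). The miR-10 strands, relatives of miR-99 and miR-100 with a shifted seed, were scarce. miR-10a-5p averaged 83.7 ± 32.5 CPM in EVs, against 56.9 ± 29.8 CPM in cells, and its log2 difference was 0.06 (edgeR BH-adjusted p = 0.929), and miR-10b-5p averaged 54.4 ± 19.5 CPM in EVs, against 34.3 ± 10.6 CPM in cells, at 0.19 (adjusted p = 0.756).

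**Figure D2:**
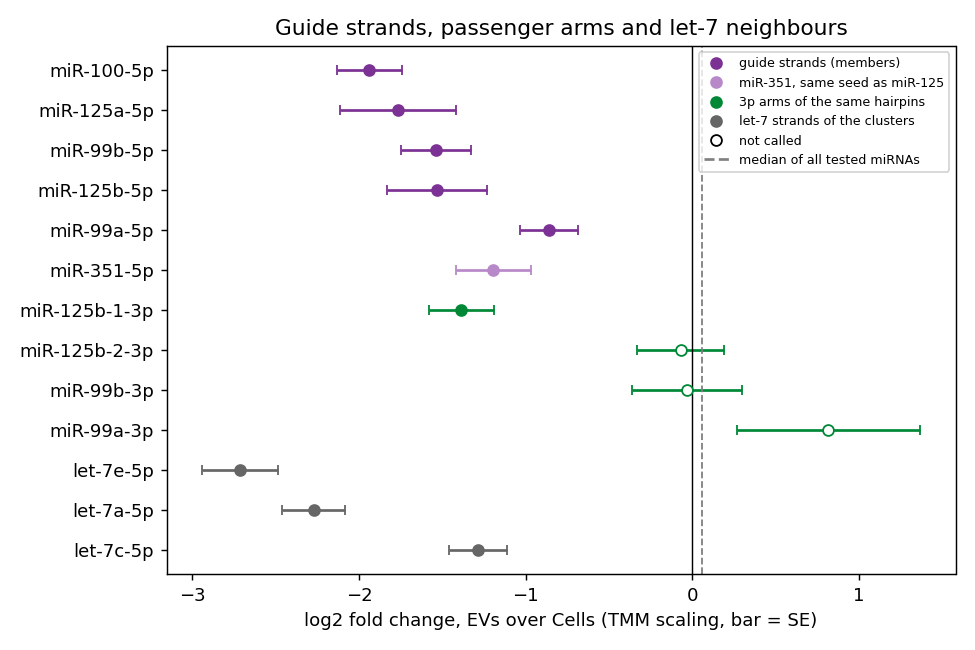
Fold change of the tested members and their relatives, EVs over cells on the log2 scale with TMM scaling, with bars for the SE, filled points for called miRNAs and a dashed line at the median of all tested miRNAs (0.06). The guide strands lie between -1.94 and -0.86, and of the passenger arms only miR-125b-1-3p (-1.39) is called.

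By the means, the order of the guides in EVs was miR-99a-5p, miR-125b-5p, miR-99b-5p, miR-125a-5p and miR-100-5p. The first pair overlapped in range, as did the last pair, while miR-99b-5p lay apart from its neighbours. In cells the order was miR-125b-5p, miR-99a-5p, miR-99b-5p, miR-125a-5p and miR-100-5p. There only miR-99a-5p and miR-99b-5p were neighbours without overlap. The strands are 22 to 24 bases long, so CPM compares them per molecule, apart from unequal ligation and amplification, which were not measured.

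Ratios within a library, which need no scaling between libraries, gave the differences between the members themselves. They were tested with limma on log2 ratios of each guide to every other tested miRNA, with BH adjustment over all 1665 ratios, of which 68.1% were called. The called share was 63.3% for ratios of miR-99a-5p, 71.3% for miR-99b-5p, 82% for miR-100-5p, 62.3% for miR-125a-5p and 61.6% for miR-125b-5p. Of the 10 pairs of guides, 2 were called, both with miR-99a-5p.

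The ratio of miR-99a-5p to miR-100-5p was 3.58, 3.70 and 3.23 in EVs and 1.53, 1.65 and 1.84 in cells. It was higher in every EV library than in any cell library, by 1.07 on the log2 scale (SE 0.20, 95% interval 0.62 to 1.51, limma BH-adjusted p = 0.000579). These strands differ only by U16A, and reads exchanged between them in counting could not be examined. The ratio of miR-99a-5p to miR-99b-5p was 2.36, 2.19 and 2.30 in EVs and 1.28, 1.45 and 1.58 in cells, a difference of 0.67 (SE 0.20, limma BH-adjusted p = 0.0093). Accordingly, miR-99a-5p made up 58.0% ± 0.70 of the reads of the 3 guides in EVs and 43.6% ± 2.43 in cells, and miR-100-5p 16.6% ± 1.05 in EVs and 26.1% ± 0.99 in cells (SD, n = 3 each, exact permutation p = 0.1 for both, or 0.138 after BH adjustment over 11 shares).

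Between miR-99b-5p and miR-100-5p the ratio was 1.52, 1.69 and 1.41 in EVs and 1.19, 1.14 and 1.17 in cells. The groups did not overlap, but the difference of 0.39 missed the threshold (95% interval -0.09 to 0.88, limma BH-adjusted p = 0.134). The ratio of miR-125a-5p to miR-125b-5p, 0.339, 0.332 and 0.352 in EVs and 0.349, 0.429 and 0.391 in cells, overlapped between groups. It was lower in EVs in each of the 3 same-numbered pairs. The log2 difference was -0.19 (limma BH-adjusted p = 0.762, SE 0.55, 95% interval -1.29 to 0.91). A replicate block gave an adjusted p of 0.703 (SE 0.44). The log2 ratios themselves had an SD of 0.04 in EVs and 0.15 in cells, smaller than the fitted SE, which draws on the spread of all ratios.

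**Figure D3:**
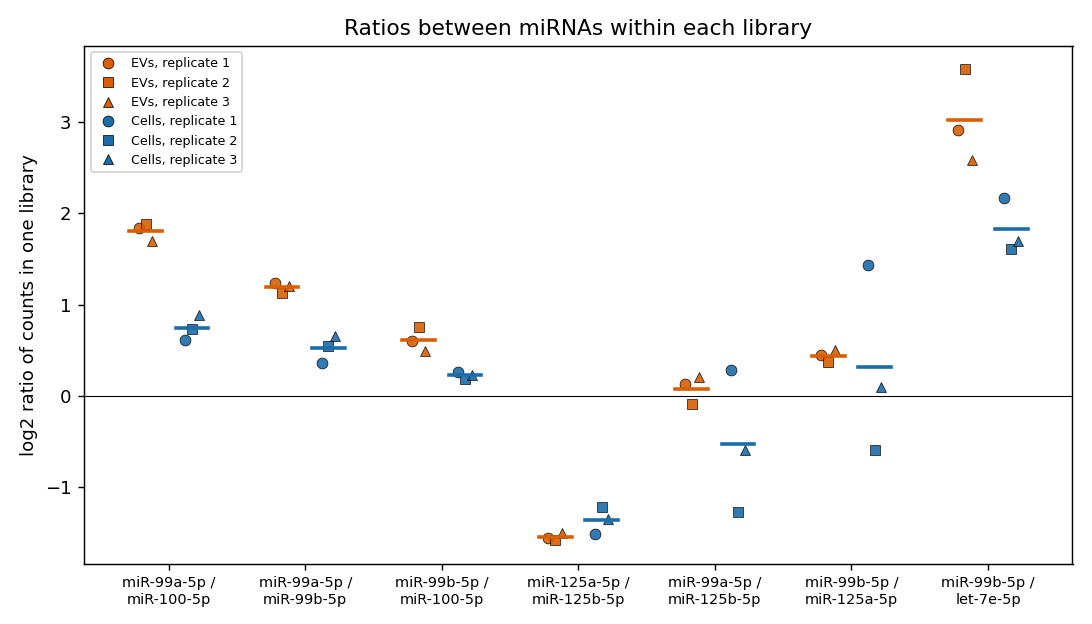
Log2 ratio of the counts of pairs of miRNAs within each library, EVs left of cells, with a line at the group mean. The ratios of miR-99a-5p to miR-100-5p (means 1.81 in EVs and 0.74 in cells) and to miR-99b-5p (1.19 in EVs and 0.52 in cells) separate EVs from cells. Those of a miR-99 strand to a miR-125 strand are spread over the cell libraries. The ratio of miR-125a-5p to miR-125b-5p is not (SD 0.15 in cells), but its groups overlap.

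No difference in change was called between a miR-99 or miR-100 guide and a miR-125 guide, and these ratios depended on single cell libraries. miR-99a-5p over miR-125a-5p was 3.23, 2.82 and 3.27 in EVs and 3.47, 0.962 and 1.69 in cells, a log2 difference of 0.80 (95% interval -0.01 to 1.61, limma BH-adjusted p = 0.073). Over miR-125b-5p the difference was 0.61 (interval -0.08 to 1.30, limma BH-adjusted p = 0.106). With the replicate number as a block both were called, with adjusted p-values of 0.0254 and 0.0462. Without Cells replicate 1 they were 1.28 (adjusted p = 0.000706) and 1.02 (adjusted p = 0.00166), and without Cells replicate 2 they were 0.36 and 0.24 and not called. For miR-99b-5p over miR-125a-5p the difference of 0.13 (interval -0.78 to 1.04, limma BH-adjusted p = 0.791) became 0.69 without Cells replicate 1 (adjusted p = 0.0325). For miR-100-5p over miR-125b-5p it was -0.45 (interval -1.22 to 0.31, limma BH-adjusted p = 0.265), 0.01 without Cells replicate 1 and -0.82 without Cells replicate 2 (adjusted p = 0.0324). The remaining pairs, miR-99b-5p over miR-125b-5p and miR-100-5p over miR-125a-5p, differed by -0.06 and -0.27 (limma BH-adjusted p = 0.881 and 0.565).

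Cells replicate 1 was the low library for both miR-125 guides and not for the miR-99 and miR-100 guides. Relative to Cells replicate 1, miR-125a-5p was 3.40-fold higher in replicate 2 and 2.24-fold higher in replicate 3, and miR-125b-5p was 2.77-fold and 2.01-fold higher. For miR-99a-5p, miR-99b-5p and miR-100-5p the same ratios lay between 0.830 and 1.09. On the log2(CPM + 1) scale, Cells replicate 1 lay below the mean of replicates 2 and 3 by 1.46 for miR-125a-5p and 1.24 for miR-125b-5p. Of 88 tested miRNAs that averaged 1000 CPM or more in cells, these gaps ranked 2 and 3, between those of miR-30c-5p and miR-30b-5p, which were chosen after their values were seen. In the same library the summed neuron markers were the lowest of the cell group (9751 CPM, against 15838 and 12290 in replicates 2 and 3). That sum follows miR-124-3p, at 6063 CPM against 13009 and 9286 CPM, while miR-129-5p was highest there, at 2798 CPM against 1931 and 2031 CPM, and miR-137-3p was not lowest. The summed mural and mesenchymal markers (1037 CPM, against 362 and 465) and oligodendrocyte markers (39683 CPM, against 29281 and 31049) were the highest of the cell group. Of the first list miR-143-3p and miR-145a-5p were highest there, but miR-199a-3p was not (38.4 CPM, against 7.88 and 39.5). The oligodendrocyte sum follows miR-219a-2-3p, at 29484 CPM against 20062 and 21042 CPM. miR-219a-5p and miR-338-5p were also highest there, while miR-338-3p was lowest, at 2106 CPM against 2332 and 2456 CPM. The part of all these markers in the gap was not tested.

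By likeness over the 6 libraries, the miR-125 guides were closest to each other, with a root mean square difference of 0.13 between their log2(CPM + 1) values, each centred on its own mean. Outside the members, the closest of 330 tested miRNAs was miR-411-3p for both (0.24 for miR-125a-5p and 0.19 for miR-125b-5p), followed by miR-1249-3p (0.32) and miR-296-5p (0.28). miR-99a-5p was closest to miR-338-3p (0.11) and miR-301a-5p (0.11), miR-99b-5p to miR-9-5p (0.16) and miR-181a-1-3p (0.19), and miR-100-5p to miR-338-5p (0.16) and miR-181a-2-3p (0.16). The distance between miR-99a-5p and miR-100-5p was 0.54, larger than that of 0.21 between miR-99b-5p and miR-100-5p.

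The let-7 strands of the clusters fell as well. let-7e-5p fell by 2.71 on the log2 scale (BH-adjusted p = 2.36e-05 by edgeR, SE 0.23), and let-7a-5p by 2.27 (SE 0.19) and let-7c-5p by 1.29 (SE 0.17). The cluster of miR-99b, let-7e and miR-125a allows the plainest comparison, since each of its guides has one gene copy. miR-99b-5p over let-7e-5p was 7.56, 12.0 and 6.03 in EVs and 4.50, 3.07 and 3.24 in cells. The EV libraries all lay above the cell libraries, by 1.20 on the log2 scale (SE 0.32, 95% interval 0.51 to 1.89, limma BH-adjusted p = 0.00517), so let-7e-5p fell further than its neighbour.

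miR-125a-5p over let-7e-5p was 5.53, 9.32 and 4.25 in EVs and 1.66, 4.63 and 3.03 in cells. The difference of 1.08 was not called (limma BH-adjusted p = 0.102), but it was when the replicate number entered as a block (adjusted p = 0.0252) and without Cells replicate 2 (1.43, adjusted p = 0.0225). miR-99a-5p over let-7c-5p differed by 0.42 (interval 0.01 to 0.83, limma BH-adjusted p = 0.0644, or 0.58 and 0.0286 without EVs replicate 3). miR-100-5p over let-7a-5p differed by 0.33 (interval -0.07 to 0.73, limma BH-adjusted p = 0.132), although its 3 values in EVs (0.448, 0.546 and 0.447) lay above those in cells (0.373, 0.383 and 0.386). let-7a-5p and let-7c-5p also come from genes outside these clusters. The 3p arm of the cluster copy let-7c-1 had 13 reads in EVs and 10 in cells, against 1235 and 197 for let-7c-2-3p. let-7a-2-3p, of the other cluster, had 5 and 2 reads, against 535 and 73 for let-7a-1-3p. The part of each copy in the guide reads was not tested. For miR-125b-5p the differences were -0.19 over let-7c-5p (interval -1.18 to 0.80, limma BH-adjusted p = 0.738) and 0.78 over let-7a-5p (SE 0.51, limma BH-adjusted p = 0.168).

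Of the 4 tested arms opposite the guides, 1 was called lower and none higher, with a median log2 fold change of -0.05. Among all 171 tested 3p arms 36 were called lower and 58 higher. miR-99b-3p had 334, 261 and 493 CPM in EVs and 346, 158 and 282 CPM in cells. The groups overlapped, and its log2 fold change was -0.03 (BH-adjusted p = 0.944 by edgeR, SE 0.33), with a sign that turned in 8 of 15 alternatives. miR-125a-3p had 33, 12 and 47 reads in EVs and 2, 2 and 7 in cells, or 76.6, 38.2 and 68.2 CPM in EVs against 12.8, 15.8 and 34.6 CPM in cells. The EV values were all higher than the cell values, as for 47.3% of tested miRNAs, but the cell values of 2 reads lie under the 3 reads that a count of 0 allows. In the alternatives that let it into the test it was not called, with a log2 fold change of 1.03 under the 10 CPM filter (edgeR BH-adjusted p = 0.0956) and 1.13 without a filter (adjusted p = 0.152).

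Of the other arms, miR-99a-3p had 35, 19 and 61 reads in EVs and 10, 2 and 3 in cells. Its log2 fold change was 0.81 (BH-adjusted p = 0.232 by edgeR, SE 0.55), or 1.92 without Cells replicate 1 (adjusted p = 0.0122). With library size only it was 1.31 and called (adjusted p = 0.0495). miR-100-3p, with 0, 1 and 8 reads in EVs and 0, 1 and 2 in cells, was too scarce to compare. The arms specific to each copy of miR-125b were both tested. miR-125b-1-3p, from the cluster of miR-100, had 188, 172 and 196 CPM in EVs and 320, 362 and 371 CPM in cells. It fell without overlap, by 1.39 on the log2 scale (BH-adjusted p = 0.000357 by edgeR, SE 0.19).

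miR-125b-2-3p, from the cluster of miR-99a, had 471, 363 and 379 CPM in EVs and 384, 252 and 272 CPM in cells. These ranges overlapped, and the log2 fold change was -0.07 (BH-adjusted p = 0.851 by edgeR, SE 0.26), or 0.42 with library size only (adjusted p = 0.162). miR-125b-1-3p made up 28.5%, 32.1% and 34.1% of the reads of both arms in EVs and 45.5%, 59.0% and 57.7% in cells. The shares did not overlap, and the exact permutation p for this difference, 0.1, is the smallest the design allows (0.138 after BH adjustment over 11 shares). Cells replicate 1, the low library for miR-125b-5p, held the lowest cell value of the first arm and the highest of the second.

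The balance of the arms was tested with limma on the log2 ratio of 5p to 3p reads per hairpin. Over 187 hairpins 24.1% were called with a larger 3p share in EVs, and 36.9% in either direction. The 3p arm of miR-99b took 7.24%, 4.68% and 9.52% of reads of its hairpin in EVs and 3.04%, 1.69% and 2.81% in cells. The EV values all lay higher, and the log2 ratio fell by 1.55 (SE 0.45, limma BH-adjusted p = 0.0223). How many of all hairpins had 3p shares without overlap was not counted. The trait was not particular to these families, since let-7a, let-7c and let-7e, with copies summed, also had higher shares in every EV library. In miR-106b every EV share was lower. For miR-125a the 3p share was 2.39%, 0.917% and 2.02% in EVs and 0.313%, 0.114% and 0.377% in cells, and the log2 ratio fell by 2.59 (SE 0.60, limma BH-adjusted p = 0.00992).

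For miR-99a the 3p share was 0.797%, 0.518% and 0.813% in EVs and 0.451%, 0.118% and 0.096% in cells, and the log2 ratio fell by 1.84 (SE 0.64, limma BH-adjusted p = 0.0455). In Cells replicates 1 to 3 the 3p arm had only 10, 2 and 3 reads for miR-99a and 2, 2 and 7 for miR-125a. Some of these lie at or under the 3 reads that a count of 0 allows. The calls were not firm. That of miR-99a ended when any library other than Cells replicate 1 was left out, and that of miR-99b without replicate 1 or 3 of EVs or replicate 2 of cells. For miR-125a it ended without EVs replicate 1 (adjusted p = 0.0564). miR-125b, with both copies summed, showed a log2 difference of -0.85 (limma BH-adjusted p = 0.214), or -1.32 without Cells replicate 1 (adjusted p = 0.0401). miR-100 stood at -0.54 (limma BH-adjusted p = 0.65), with 9 reads of its 3p arm in EVs and 3 in cells.

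**Figure D4:**
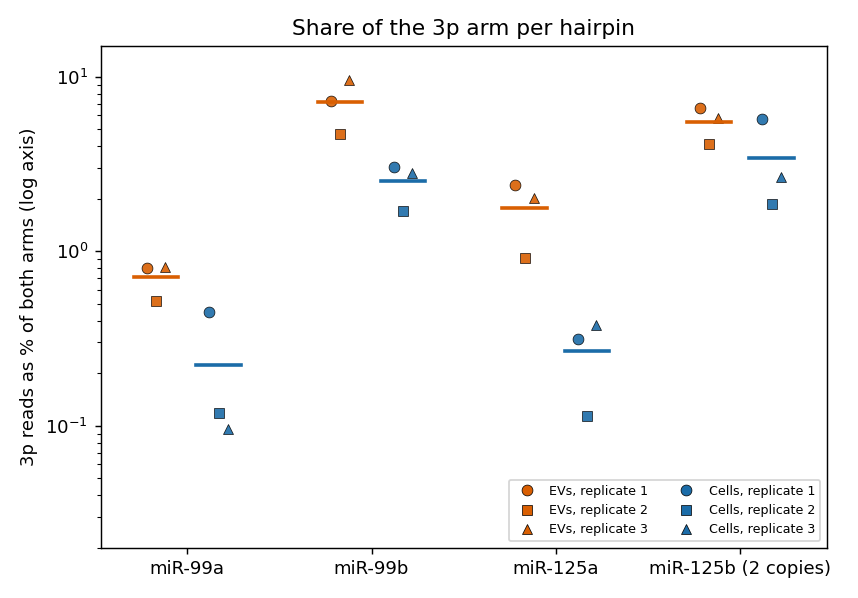
Reads of the 3p arm as a percentage of both arms of a hairpin, on a log axis, for each library, EVs left of cells, with a line at the group mean. For miR-99a, miR-99b and miR-125a all EV libraries lie above all cell libraries, with means of 0.709% in EVs and 0.222% in cells for miR-99a, 7.15% in EVs and 2.51% in cells for miR-99b, and 1.77% in EVs and 0.268% in cells for miR-125a. The cell values rest on 10, 2 and 3 reads of the 3p arm for miR-99a and 2, 2 and 7 for miR-125a. The share of all hairpins without overlap was not counted, and let-7a, let-7c and let-7e, which are not drawn, also separate with EVs higher.

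Among sequence features, miR-99b-5p had the highest GC content of the guides, 63.6%, against a median of 45.5% over the 297 tested miRNAs found in RefSeq. Short motifs reported for miRNAs sorted into vesicles were searched in the mature strands, on that strand alone and at any position. The percentages below are of the 297 tested miRNAs with a sequence. CCCU was present in both miR-125 guides and in 9.43% of tested miRNAs. Each of these guides holds it within the seed and again after the seed. GGAG was present in miR-125a-3p and in 8.75% of tested miRNAs, and in none of the guides. The 26 tested miRNAs with GGAG included miR-351-5p and miR-125b-1-3p. No motif was tested against the direction of change. GGCU was present in none of the members and in 14.1% of tested miRNAs. Among the relatives, miR-351-5p also held CCCU and miR-125b-1-3p also held GGCU.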

How the data were processed

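Small RNA (15 to 200 nt) from 3 EV and 3 cell libraries was sequenced. The authors deposited raw read counts per mature miRNA, which are whole numbers, and per the submitters' processing notes featureCounts 1.4.6-p4, Bowtie 0.12.8, cutadapt 1.7.1 and bcl2fastq 1.8.4 were used with the build NCBIM37. How reads matching several loci were treated is not given in the sources used here. Nothing in the labels says that the replicates were separate cultures. The p-values therefore set the difference between groups only against the scatter of these libraries, which may be technical.

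edgeR 4.0.16 tested all miRNAs that passed filterByExpr (minimum count 10), with TMM scaling and a quasi-likelihood test, two-sided. limma 3.58.1 tested log2 ratios of counts (pseudocount 0.5) within libraries and per hairpin. Calls are at a BH-adjusted p below 0.05 over each whole table. Shares were compared by exact permutation. The methods were tested on simulated data. Of true log2 differences of 1, the edgeR test called 71.1%, the ratio test 56.9% and the arm test 14.3%. At a true difference of 2 the shares were 99.0%, 98.4% and 53.7%. Where there was no true difference, they were 4.96%, 13.9% and 3.13%. An arm or ratio that was not called may therefore still differ, and a called ratio may be false. Of all ratio calls in the simulation 4.31% were false. Totals were 126910 to 689475 counts. The biological coefficient of variation was 23.8%, so for the guides, with at least 636 reads in each library, the spread between libraries limits the precision more than counting does. A count of 0 allows 3 reads, for counting error only. CPM was computed from the total of each library.

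Same-numbered libraries deviated together, with correlations of 0.115, 0.106 and 0.256 over miRNAs against -0.148 to 0.0213 for different numbers, on the scale of edgeR log2 CPM with a prior count of 2. The deviations were taken from the mean of each group's 3 libraries. Positive values for the same number therefore push those for different numbers down, and the latter are no separate contrast. On that scale all 3 values for the same number lie above the limit of 0.1 used for pairing. On log2(CPM + 1) they were 0.141, 0.0974 and 0.277, so there number 2 lies just under it. The main fits have no block, and some calls depend on this choice, as given below. The replicate number was tried as a block. Other alternatives were further scalings, filters and pseudocounts, DESeq2 1.42.0, limma-voom, thinning, leaving out miR-9-5p and leaving out each library.

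The members and lists were chosen with earlier results of these data known. Named miRNAs are the members, the opposite arms, the let-7 strands of the same clusters, miRNAs with a guide's seed and the miR-10 relatives. For each guide the 2 tested miRNAs nearest in pattern are also named. The 3p arms of further let-7a and let-7c copies are given for their reads only. Sequences and clusters are from RefSeq and host genes from GENCODE, both on GRCm38, matched by name. let-7e-3p, let-7c-1-3p and let-7a-2-3p were too scarce to test.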

Additional observations from a re-analysis of the deposited data

How the results depend on the processing

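The 5 guide strands stayed lower and called in all 15 alternatives, with 5 members lower and 0 higher in each. Both family sums and the ratios of miR-99a-5p to miR-100-5p (1.00 to 1.14 with single libraries left out), miR-99a-5p to miR-99b-5p (0.59 to 0.74) and miR-99b-5p to let-7e-5p (0.93 to 1.42) kept their call too. With single libraries left out, the log2 fold change ranged over -2.10 to -1.37 for miR-125a-5p, -1.87 to -1.23 for miR-125b-5p and -1.96 to -1.33 for their sum. With library size only, 148 miRNAs were called higher and 60 lower, in place of 96 and 97, and higher calls made up 71.2% of calls against 49.7%. The log2 fold change of miR-99b-3p, never called, was 0.47 with library size only, 0.032 by limma-voom, 0.13 on unfiltered counts, 0.022 under a 10 CPM filter, 0.0025 with the replicate block and 0.054 after thinning, and -0.30 to 0.29 with single libraries left out. The 5p over 3p difference of miR-99a was -1.98 and not called at a pseudocount of 0.1. The log2 difference of miR-99a-5p over miR-125a-5p was called at 0.80 without a filter (adjusted p = 0.0279). With the replicate block it was called at the same 0.80, as were miR-99a-5p over miR-125b-5p at 0.61 and miR-125a-5p over let-7e-5p at 1.08, and the block changed no other call among the named miRNAs, sums, hairpins and ratios refitted with it. The shares of reads were not refitted with the block.

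With single libraries left out, 5p over 3p ranged over -2.46 to -1.42 for miR-99a, -1.84 to -1.29 for miR-99b, -3.01 to -2.10 for miR-125a, -1.32 to -0.49 for miR-125b and -1.38 to 0.20 for miR-100. miR-99a-5p ranged over 0.36 to 1.28 against miR-125a-5p, 0.24 to 1.02 against miR-125b-5p and 0.26 to 0.58 against let-7c-5p. miR-99b-5p ranged over -0.33 to 0.69 against miR-125a-5p and -0.44 to 0.42 against miR-125b-5p. miR-100-5p ranged over -0.70 to 0.28 and -0.82 to 0.014 against the same strands. Against let-7e-5p miR-125a-5p ranged over 0.69 to 1.43, and miR-125b-5p over -0.65 to 0.16 against let-7c-5p and 0.30 to 1.15 against let-7a-5p. The cause of these changes was not tested. Depth limits the passenger arms most, since one read was worth up to 7.88 CPM in cells.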
